A study of Mus musculus with 36 samples.

Results

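The data compare mouse induced pluripotent stem (iPS) cells made with the factors Oct4, Sox2 and Esrrb, called OSE clones here, with embryonic stem (ES) cells of the line R1. Members were chosen by sample title, as all 8 OSE clones and all 4 R1 replicates, which are 12 of the 36 samples of the series. OSE clones were derived from mouse embryonic fibroblasts (MEFs) that overexpressed the 3 factors, and R1 cells were kept on a medium for mouse ES cells (mESC medium). Total RNA was read on a one-colour Illumina bead array. The other samples, used in places as a second reference, were 11 clones made from MEFs with Oct4, Sox2 and Klf4 (OSK), 11 made with these and Tbx3 (OSKT), and 2 replicates of the ES line D3 grown on MEF medium. The medium of the iPS clones, the sex and strain of the fibroblasts, the passage of the clones and the state of the transgenes are not given in the labels. What reprogramming changed, and what strain or culture changed, cannot be told apart with these groups.

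Oct4 (gene Pou5f1) and Sox2 are transcription factors that bind DNA together and hold the pluripotent state, and Esrrb is an orphan nuclear receptor of the same network. In the mouse ES cell this network is fed by the cytokine LIF through Stat3, which keeps Klf4, Klf5 and Tfcp2l1 on. The cell can leave this naive state towards a primed state like that of the epiblast after implantation, marked by Fgf5 and Dnmt3b, and from there towards the primitive streak and the germ layers. In fibroblast reprogramming, mesenchymal genes are shut off, epithelial genes come on, and the endogenous network is switched on last.

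Values below are normalized log2 signals, differences are OSE minus R1 on the log2 scale with their standard error (SE), and a gene changed, rose or fell where its adjusted p from limma over 10533 features was under 0.05. Of these features 6178 changed (58.7%), 3026 of them higher (28.7%) and 3152 lower (29.9%) in OSE clones. Against these shares any count of list members has to be read. A change of at least 2-fold was found for 1242 features (11.8%), with 585 higher (5.55%) and 657 lower (6.24%), or 504 and 539 when groups below background were set at their detection limit. All 8 OSE clones stood above all 4 R1 replicates for 2120 features (20.1%) and below them for 2396 (22.7%). The median difference of all features was 0.01 and the median absolute difference 0.34. Precision is limited by the number of arrays.

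OSE clones 1 and 2, 3 and 4, and 5 and 6 were as alike as R1 replicates were to each other, with root mean square (RMS) differences of 0.213, 0.179 and 0.183 against at most 0.22 within R1. Counted at that limit the 8 clones gave 5 distinct samples. The study's design names the R1 samples biological replicates, with no word on separate thaws or days, so their spread may be partly technical. The p-values rest on a spread pooled over all groups of the series, including OSK, OSKT and D3, not on OSE and R1 alone. With only OSE and R1 arrays in the fit 6198 features changed. Clone 8 stood furthest from the others (RMS 0.446 to 0.623) and had the lowest signal, with a 75th percentile of 337.3 intensity units against 462.5 to 617.35 in clones 1 to 7 and 533.28 to 666.32 in R1. The median SD of a feature was 0.186 over OSE clones and 0.0996 over R1 replicates. Across features the correlation of single arrays with the R1 mean was 0.925 to 0.941 in OSE clones, 0.940 to 0.953 in OSK clones, and 0.981 in both D3 replicates. These points share the R1 reference.

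Pluripotency genes were read above background in both groups. Of the 10 defining markers 9 had a probe and were above background on all 12 arrays: Pou5f1, Sox2, Nanog, Zfp42, Sall4, Utf1, Tdgf1, Esrrb and Fgf4. Of the 7 defining fibroblast markers Vim, Thy1 and Col1a1 were above background on all 12 arrays, Col1a2 and Col3a1 were so in 7 of 8 OSE clones and no R1 replicate, Postn was below background in every one of these samples, and Fbn1 had no probe. In OSE clones Zfp42 and Fgf4 had median signals of 7.71 and 7.64, against 12.72 to 12.88 and 9.30 to 9.58 in R1 cells.

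The network's core factors were read lower in OSE clones, and for the 6 described here every clone stood below every R1 replicate. Esrrb, one of the 3 factors overexpressed to make these clones, had a lowest, median and highest signal of 12.98, 13.45 and 13.87 in OSE clones, and 15.09, 15.06, 15.13 and 15.03 in the R1 replicates. It was 3.10-fold lower (difference -1.63, SE 0.140, adjusted p = 3.13e-12). It also stood 0.88 below its mean of 14.33 in OSK clones, which were not given Esrrb (adjusted p = 2.33e-08). It is not stated whether this probe can hybridise to transgene RNA as well. Pou5f1 ran from 12.61 to 13.02 with a median of 12.76 in OSE clones and read 13.46, 13.43, 13.34 and 13.61 in R1 cells. It was the least changed of the factors, 1.59-fold lower (difference -0.67, SE 0.121, adjusted p = 1.47e-05). Sox2 ran from 9.43 to 9.94 with a median of 9.57, against 10.70, 10.59, 10.64 and 10.63, a 1.97-fold lower level (adjusted p = 1.32e-07).

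Nanog, the homeodomain factor that guards the naive state, ran from 11.65 to 12.17 with a median of 12.12, against 13.15, 12.93, 13.15 and 12.90 in R1 cells. It was 2.00-fold lower (adjusted p = 1.57e-07). The D3 replicates, at 12.06 and 12.07, lay inside the OSE range for Nanog, which none of the other factors did. Klf4, the Krüppel-like factor that is given in OSK clones where OSE clones were given Esrrb, ran from 8.01 to 9.25 with a median of 8.59, against 10.86, 10.88, 10.72 and 10.93. It was 4.65-fold lower (adjusted p = 5.22e-11). Tbx3, a T-box factor downstream of LIF, ran from 8.51 to 10.10 with a median of 9.28, against 11.20, 11.01, 11.17 and 11.18. It was 3.40-fold lower (adjusted p = 6.61e-10) and also 1.36 below OSK clones (adjusted p = 1.61e-09), which did not receive Tbx3 either. Myc was below background on all 36 arrays and was not tested.

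**Figure D1:**
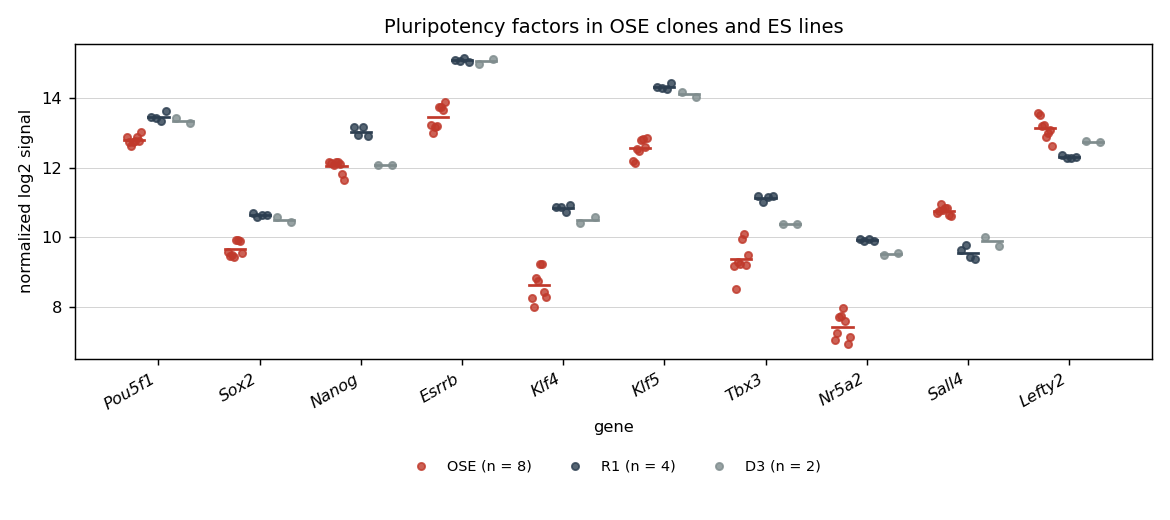
Normalized log2 signal of 10 pluripotency factors in each of 8 OSE clones (red), 4 R1 replicates (dark) and 2 D3 replicates (grey), with a line at each group's mean. All 8 OSE clones lie below all R1 replicates except for Sall4 and Lefty2, where all 8 lie above them.

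The wider pluripotency list moved the same way. Among 36 members tested there were 29 that fell, 4 that rose and 3 without a call, with a median difference of -1.07 against 0.01 over all features. All 8 OSE clones lay below all R1 replicates for 28 of the 36. The largest fall was that of Zfp42 (Rex1), a zinc-finger protein used as a marker of the naive state, which ran from 7.36 to 8.13 with a median of 7.71 in OSE clones and read 12.79, 12.72, 12.74 and 12.88 in R1 cells. Every clone lay far below every R1 replicate, and Zfp42 was 34.6-fold lower (difference -5.11, SE 0.130, adjusted p = 6.27e-27). D3 cells held it too, at 12.38 and 12.28.

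Jam2, a junctional adhesion molecule, ran from 7.93 to 9.14 with a median of 8.76, against 11.90, 11.77, 12.02 and 11.83, and was 9.06-fold lower (adjusted p = 2.39e-16). Nr5a2, a nuclear receptor that can replace Oct4 in reprogramming, ran from 6.94 to 7.97 with a median of 7.42, against 9.95, 9.90, 9.95 and 9.90. It was 5.64-fold lower (adjusted p = 1.58e-17) and above background in 7 of 8 clones. Tet2, an enzyme that oxidizes methylcytosine, was 4.02-fold lower (6.96 to 8.14 against 9.36 to 9.67, adjusted p = 3.56e-12).

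Of the 4 members that rose, the smallest change was that of Lin28a, an RNA-binding protein that holds back let-7 (difference 0.66, adjusted p = 1.85e-05). Dppa3 (Stella), a maternal protein that shields methylation in the zygote and marks germ cells, ran from 11.23 to 11.89 with a median of 11.36 in OSE clones, against 7.09, 7.01, 7.17 and 7.03 in R1 cells. It was 20.2-fold higher (difference 4.34, SE 0.124, adjusted p = 1.15e-25). D3 cells lay between the groups, with a mean of 8.74, and OSK clones had a mean of 11.41. Sall4, a zinc-finger partner of Oct4, ran from 10.61 to 10.95 with a median of 10.77, against 9.64, 9.78, 9.44 and 9.39, a 2.30-fold higher level (adjusted p = 8.95e-16). Lefty2, a secreted Nodal inhibitor, was 1.77-fold higher (adjusted p = 5.21e-06). The 3 that did not pass were Utf1 (0.11, adjusted p = 0.567), Tdgf1 (-0.75, 0.0522) and Lefty1 (0.30, 0.0541).

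Signal genes were read by pathway. In the LIF and Stat3 list 14 of 22 genes fell and 4 rose, with 4 not called (median -0.45), and 7 fell when near-identical arrays were averaged, a setting in which R1 counts as 1 sample. Klf5 was 3.40-fold lower (12.14 to 12.85 against 14.25 to 14.41, adjusted p = 6.80e-13). Spry4, a feedback inhibitor of FGF signalling that LIF also drives, ran from 9.28 to 10.07 with a median of 9.88, against 11.51, 11.70, 11.35 and 11.53, and was 3.38-fold lower (adjusted p = 1.72e-09). Stat3 itself was lower by a smaller margin (difference -0.57, adjusted p = 2.48e-07). The members that rose were Tfap2c (2.40-fold), the cytokine-induced inhibitor Cish (1.92-fold), the mRNA decay factor Zfp36 (1.60-fold) and Junb (difference 0.41).

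In the FGF and ERK list 5 of 14 fell, 3 rose and 6 did not pass (median 0.12). With near-identical arrays averaged 2 fell and 1 rose, and with a replicate block 6 fell and 7 rose. Etv5, an ETS factor induced by ERK, was 2.51-fold lower (10.81 to 11.10 against 12.18 to 12.44, adjusted p = 2.41e-12). The phosphatase Dusp4, which switches ERK off, was 1.99-fold higher (10.05 to 10.68 against 9.22 to 9.39, adjusted p = 1.86e-07). Fgf4, the ligand that ES cells make for themselves, ran from 7.19 to 9.52 with a median of 7.64 in OSE clones, against 9.55, 9.58, 9.30 and 9.47. It was 2.84-fold lower (difference -1.50, SE 0.328, adjusted p = 0.000177), with clone 8 inside the R1 range and the other 7 below it, and did not pass with near-identical arrays averaged (-1.28, adjusted p = 0.147).

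Of 17 Nodal, BMP and Wnt genes 8 rose, 2 fell and 7 did not pass (median 0.59), and 3 rose with near-identical arrays averaged. Both ligands with a named fall were lower in every clone. Nodal was 1.48-fold lower (11.02 to 11.38 against 11.76 to 11.80, adjusted p = 4.77e-06), while its inhibitor Lefty2 rose. Bmp4 was 2.94-fold lower (9.08 to 10.64 against 11.22 to 11.55, adjusted p = 0.000195), while the BMP target Id2, an inhibitor of bHLH factors, was 3.54-fold higher (8.98 to 9.81 against 7.39 to 7.66, adjusted p = 1.96e-13). The receptor Bmpr1a was 1.51-fold higher (adjusted p = 2.02e-09).

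**Figure D2:**
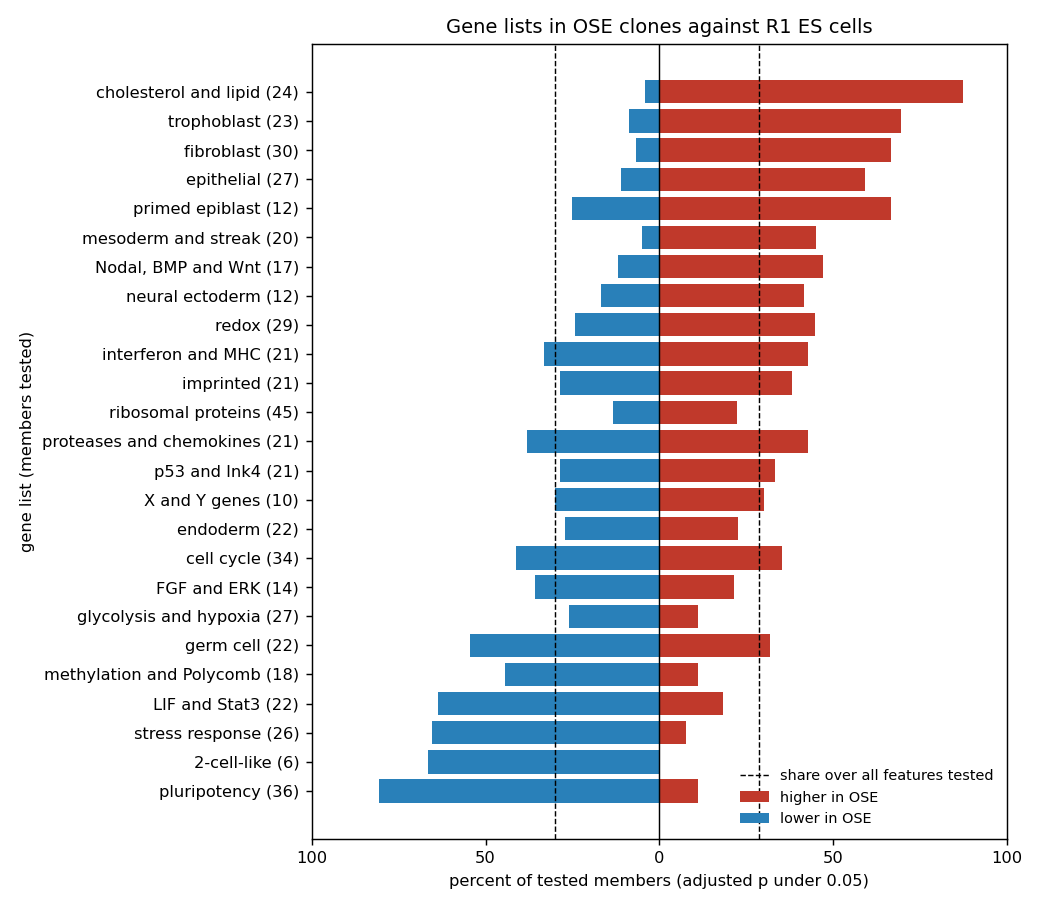
Share of the tested members of each of 25 gene lists that were higher (red, to the right) or lower (blue, to the left) in OSE clones than in R1 cells in the limma fit, with the number tested in brackets. Dashed lines give the shares over all 10533 features (28.7% higher and 29.9% lower), and some lists share members.

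The gene with the largest rise among those with an informative symbol was a keratin. Krt8, a keratin of simple epithelia, ran from 12.06 to 13.68 with a median of 13.10 in OSE clones, against 7.83, 8.11, 8.24 and 8.08 in R1 cells. It was 30.6-fold higher (difference 4.93, SE 0.454, adjusted p = 1.94e-11). Its partner Krt18 ran from 10.77 to 12.49 with a median of 11.65, against 7.78, 8.00, 7.90 and 7.83, and was 13.7-fold higher (adjusted p = 2.70e-10). Neither differed from OSK clones past the threshold (-0.19, adjusted p = 0.676, and -0.67, adjusted p = 0.062).

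In the epithelial list 16 of 27 tested members rose, 3 fell and 8 did not pass (median 0.88), and all 16 that rose were above all R1 replicates in every clone. Baiap2l1, an adaptor that bends membranes and bundles actin, was 12.1-fold higher (10.16 to 11.17 against 7.06 to 7.25, adjusted p = 1.19e-21). Cldn7, a tight junction claudin, was 4.85-fold higher (9.03 to 9.72 against 7.00 to 7.18, adjusted p = 8.64e-12), and Rab25, a trafficking GTPase of epithelia, 3.34-fold higher (adjusted p = 3.47e-13). E-cadherin (Cdh1), which joins ES cells to each other, differed by 1.04 (adjusted p = 5.73e-09). The 3 that fell were Grhl2, a transcription factor of epithelia (2.30-fold, adjusted p = 6.60e-11), the laminin receptor subunit Itga6 (1.94-fold) and the protease inhibitor Spint2 (1.61-fold).

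Trophoblast genes rose in 16 of 23 cases and fell in 2, and 5 were not called (median 1.26). The list mean was 8.84 to 9.69 in OSE clones and 7.88 to 7.98 in R1 replicates. It was also above R1 in OSK clones (9.59 to 10.15) and OSKT clones (9.32 to 10.40). The keratins are 4 of the 16 and are also epithelial. Of the transcription factors of the lineage, Gata3 differed by 1.48 (7.31 to 8.39 against 6.34 to 6.68, adjusted p = 7.84e-10), Cdx2 by 1.37 (7.68 to 9.39 against 6.76 to 7.37, adjusted p = 0.00043) and Tfap2c by 1.26. Tfap2c, which serves trophoblast and germ cells alike, ran from 11.38 to 12.09 with a median of 11.64, against 10.38, 10.37, 10.38 and 10.48, and was 2.40-fold higher (adjusted p = 7.07e-12). Hand1, of differentiating trophoblast, did not pass (0.20, adjusted p = 0.537). Of the 2 that fell, Lgals3, a galectin, was 2.34-fold lower (11.54 to 12.62 against 13.29 to 13.45, adjusted p = 5.43e-09). The other, Tead4, was below background in every OSE clone and above it on 3 of 4 R1 arrays, so no fold is given.

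Rhox9 and Rhox6, homeobox genes of placenta and germ line on the X chromosome, both rose. Rhox9 ran from 10.72 to 12.73 with a median of 11.62, against 8.53, 8.65, 8.64 and 8.70, and was 7.52-fold higher (adjusted p = 4.96e-10). Rhox6 was at least 4.21-fold higher (8.17 to 10.00 against 6.10 to 6.44, adjusted p = 6.45e-08), being below background in all R1 replicates. Their neighbour Rhox5 did not pass against R1 (0.46, adjusted p = 0.0841), though it did without OSE clone 2 (0.57, adjusted p = 0.0273), 3 (0.59, 0.0189) or 4 (0.58, 0.0204). Rhox13, of the same cluster and known from testis, went the other way and was 13.4-fold lower (7.08 to 7.87 against 11.08 to 11.35, adjusted p = 2.93e-14).

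Of 22 germ line genes tested 12 fell, 7 rose and 3 did not pass (median -0.53). Those that fell include genes of meiosis and of the male germ line: Taf7l, a testis form of a general transcription factor subunit (6.31-fold, 7.56 to 8.33 against 10.29 to 10.77, adjusted p = 3.42e-16), the testis tubulin Tuba3a (6.59-fold, adjusted p = 7.59e-14) and Mov10l1, a helicase that makes piRNAs (at least 3.02-fold, below background in all OSE clones, adjusted p = 9.93e-15). Those that rose include the early germ cell genes Dppa3 and Tfap2c and the Rhox genes. Early germ cell genes did not all rise. Kit (-1.50, adjusted p = 1.29e-08) and Ifitm2 (-0.57, 8.32e-06) fell, Ifitm3 rose (0.40, 1.65e-06), and Ifitm1 did not pass (-0.07, 0.339). Among the lowest genes overall were 2 cohesin subunits of meiosis. Smc1b, above background in 3 of 8 OSE clones, ran from 6.11 to 7.66 with a median of 6.54, against 10.61, 10.44, 10.51 and 10.78, and was at least 10.9-fold lower (adjusted p = 1.32e-12). Stag3 ran from 8.22 to 9.69 with a median of 8.63, against 12.15, 12.12, 12.23 and 12.20, and was 10.7-fold lower (adjusted p = 1.11e-12). D3 cells had Stag3 at a mean of 11.83 and Smc1b at 9.80, nearer to R1 than to OSE clones. Of 6 genes of the 2-cell-like state, a rare state of ES cells that resembles the early embryo, 4 fell and none rose, and 2 fell with near-identical arrays averaged. Tcstv3 was 5.43-fold lower (7.32 to 9.57 against 11.03 to 11.17, adjusted p = 6.95e-09), and a second probe gave -1.01 (adjusted p = 0.00226).

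**Figure D3:**
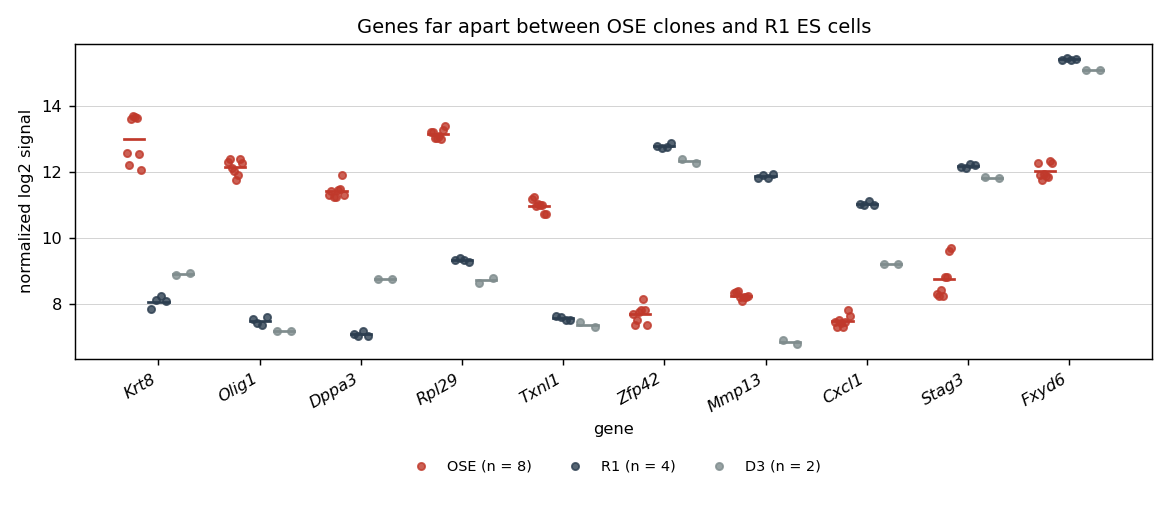
Normalized log2 signal of 10 genes with a 10-fold or larger difference in each of 8 OSE clones (red), 4 R1 replicates (dark) and 2 D3 replicates (grey), with a line at each group's mean. No OSE clone overlaps an R1 replicate for any of them, and D3 lies near R1 for most, but below the OSE clones for Mmp13 and between the groups for Dppa3 and Cxcl1.

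Other genes of high difference had no common list. Olig1, a bHLH factor of oligodendrocytes, ran from 11.76 to 12.40 with a median of 12.19 in OSE clones, against 7.54, 7.40, 7.34 and 7.61 in R1 cells, and was 25.4-fold higher (difference 4.67, SE 0.244, adjusted p = 8.67e-18). It stood apart from the other iPS sets as well, with a mean of 6.45 in OSK clones, where 1 of 11 was above background, and of 6.05 in OSKT clones, where none was, in a comparison that called 60.1% of features. The differences, not bounded at background and so of uncertain size, were 5.69 and 6.09 (adjusted p = 1.49e-23 and 1.98e-24). Rpl29, a ribosomal protein, ran from 12.98 to 13.39 with a median of 13.15, against 9.32, 9.38, 9.33 and 9.27, and was 14.2-fold higher (adjusted p = 1.49e-29). Ribosomal protein genes have many pseudogene copies, so a probe can read more than 1 locus. Of the list's 45 genes 10 rose, 6 fell and 29 did not pass (median 0.01). The balance turned with scaling to a common median, to 6 higher and 12 lower, and with near-identical arrays averaged 6 were higher and 2 lower.

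Haus1, a subunit of the augmin complex of the spindle, was at least 14.5-fold higher (10.51 to 11.01 against 6.54 to 6.92, above background on 1 R1 array). Txnl1, a thioredoxin-like protein, was 10.7-fold higher (10.72 to 11.23 against 7.50 to 7.63, adjusted p = 8.06e-27) and Nod1, a sensor of bacterial peptidoglycan, 8.89-fold (10.41 to 10.76 against 7.19 to 7.63). Eif3j1, a translation initiation factor subunit, was at least 7.79-fold higher, with no R1 array above background. For Rpl29 and these 4 genes the SD over OSE clones was 0.13 to 0.36, and the means of OSE and OSK clones differed by less than 0.5, while D3 cells lay near R1 for each of them. Contractile and membrane genes varied more between clones. Acta1, skeletal actin, was 11.3-fold higher (9.35 to 11.46 against 6.73 to 7.15, adjusted p = 3.03e-07), and Actg2, enteric smooth muscle actin, 9.98-fold (10.70 to 13.08 against 8.73 to 9.12, adjusted p = 3.15e-06). Fermt1, an integrin activator of epithelia, was at least 7.76-fold higher (adjusted p = 3.93e-13) and the carbonic anhydrase Car4 9.54-fold (adjusted p = 5.38e-12).

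On the low side secreted and immune genes stood beside the germ line genes. Mmp13, a collagenase, ran from 8.07 to 8.37 with a median of 8.21, against 11.81, 11.89, 11.80 and 11.93 in R1 cells, and was 12.3-fold lower (adjusted p = 1.19e-21). Cxcl1, a chemokine for neutrophils, ran from 7.29 to 7.81 with a median of 7.46, against 11.03, 10.99, 11.10 and 11.00, and was 11.7-fold lower (adjusted p = 2.19e-25). D3 cells, grown on MEF medium, read 6.83 for Mmp13 and 9.19 for Cxcl1 on average, far below R1 cells on mESC medium. For these 2 genes line and medium cannot be told apart. Cxcl5 was at least 3.98-fold lower and below background in all OSE clones. The list of proteases and chemokines was split, with 9 of 21 higher, 8 lower and 4 not passed (median 0.28). The 9 higher include the chemokines Cxcl14 (at least 1.71-fold) and Cxcl16 (1.98-fold) and tissue plasminogen activator Plat (2.62-fold), and 4 of the 9 rose with near-identical arrays averaged.

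Fxyd6, a regulator of the sodium pump, ran from 11.73 to 12.32 with a median of 11.91, against 15.39, 15.44, 15.39 and 15.41, and was 10.5-fold lower (adjusted p = 1.97e-19). Dpp4, a cell surface peptidase, was 12.5-fold lower (7.47 to 8.94 against 11.72 to 11.96, adjusted p = 4.11e-17). At background in all 8 OSE clones were the aspartic protease Napsa (at least 6.74-fold lower), the protease inhibitor Spink10 (at least 7.30-fold), the EF-hand protein Efhc2 (at least 10.3-fold) and the antiviral synthetase Oas2 (at least 4.75-fold). Dmrtc1c1 was at least 15.4-fold and Myo1f, an unconventional myosin of leukocytes, at least 7.57-fold lower, each above background in 2 of 8 clones.

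Of 21 interferon and MHC genes tested 9 rose, 7 fell and 5 did not pass (median 0.13). Of the antiviral effectors, Ifit3 was lower by at least 3.63-fold (6.39 to 7.29 against 8.88 to 8.94, adjusted p = 3.41e-15), Rsad2 by at least 1.51-fold and the RNA sensor Ddx58 by 2.19-fold (adjusted p = 5.19e-09). Of the genes of antigen presentation, the proteasome subunit Psmb10 was higher by 2.70-fold (11.22 to 12.03 against 10.13 to 10.29, adjusted p = 2.62e-12) and the peptide transporter Tap2 by 2.58-fold (adjusted p = 1.84e-11). Ly6e, a membrane protein induced by interferon, was 2.41-fold higher (adjusted p = 2.57e-16). The roles did not part cleanly, since the antiviral gene Bst2 rose (0.62) and the MHC gene H2-Bl fell (-1.92).

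Transcripts of cholesterol synthesis genes rose nearly throughout. Cells make cholesterol from acetyl-CoA by way of mevalonate, squalene and lanosterol, under control of the transcription factor SREBP2, which acts with NF-Y at promoters. Of 24 tested genes of cholesterol and fatty acid synthesis 21 rose, 1 fell and 2 did not pass, with a median difference of 1.17, and for 18 of them all 8 clones lay above all R1 replicates. The list mean was 11.05 to 11.37 in OSE clones and 10.14 to 10.18 in R1 replicates. The other iPS sets stood above R1 as well, at 11.00 to 11.09 in OSK and 10.90 to 11.02 in OSKT clones. At the head of the pathway Hmgcs1, HMG-CoA synthase, ran from 14.22 to 14.67 with a median of 14.45, against 12.68, 12.69, 12.71 and 12.57, and was 3.41-fold higher (difference 1.77, SE 0.089, adjusted p = 2.50e-18). Fdps, which makes farnesyl diphosphate, ran from 13.76 to 14.47 with a median of 14.01, against 12.20, 12.37, 12.44 and 12.40, and was 3.26-fold higher (adjusted p = 1.92e-16).

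Cyp51, the lanosterol demethylase, ran from 10.53 to 11.17 with a median of 10.86, against 9.48, 9.50, 9.40 and 9.51, and was 2.53-fold higher (adjusted p = 1.84e-15). For each of these 3 enzymes D3 cells lay with R1, at means of 12.70, 12.57 and 9.58. Hmgcs1 and Cyp51 also stood above OSK clones, by 0.39 (adjusted p = 1.18e-05) and 0.28 (adjusted p = 0.00067), and Fdps did not pass there (0.14, adjusted p = 0.123). Further along, lanosterol synthase Lss differed by 1.53 (adjusted p = 5.49e-15), the reductase Dhcr7 by 1.62 and isopentenyl diphosphate isomerase Idi1 by 1.23 (adjusted p = 1.84e-05). Srebf2, the gene of SREBP2, differed by 0.88 (adjusted p = 6.15e-07). Of fatty acid genes the desaturase Scd1 differed by 1.83 and Fasn by 1.35, while the elongase Elovl6 was the only member that fell (1.36-fold lower, adjusted p = 0.000216), a call lost with near-identical arrays averaged.

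**Figure D4:**
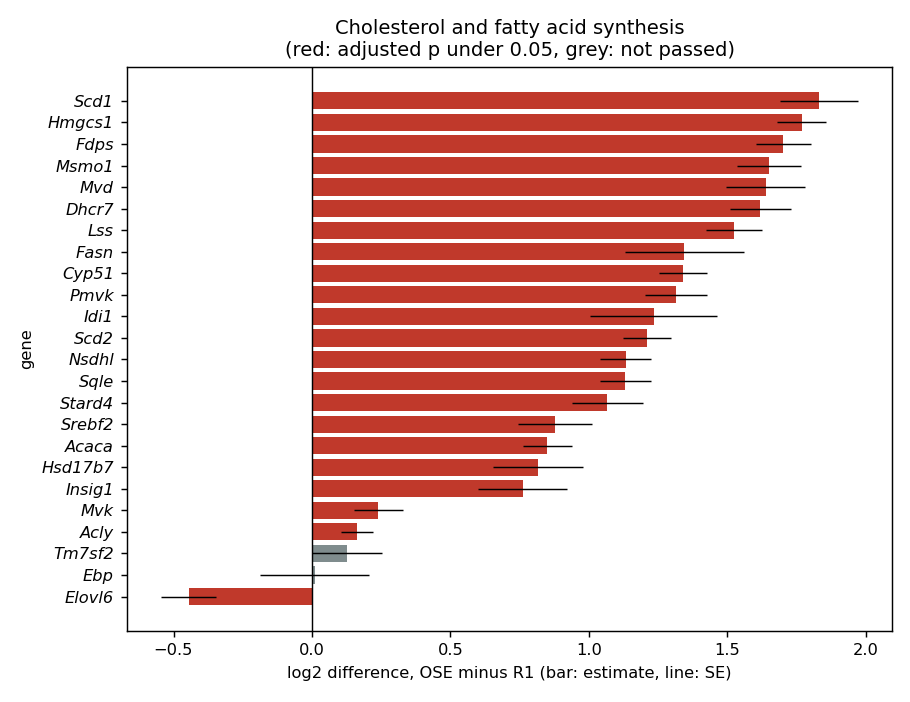
Log2 difference between OSE clones and R1 cells for the 24 tested genes of cholesterol and fatty acid synthesis, with a line for the SE of the limma fit. Red bars passed an adjusted p under 0.05, grey bars did not, and Elovl6 is the only gene below 0 that passed.

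The promoters of these genes are shown because the members moved together. RefSeq (GRCm38.p6) gave a promoter for 19 of the 24, and the 250 bases before the start were searched on both strands for 8 short motifs chosen after the values were seen. The box CCAAT, bound by NF-Y, was in 16 of the 19 (84.2%), and in 14 of the 16 that rose (87.5%). Over the 7487 tested genes with a promoter it was in 40.7%, and over all 27025 promoters in 37.5%. The SREBP-type motif TCACNCCAC was in 1 of the 19 (5.26%), that of Hmgcs1, against 1.28% of tested genes. TCAAGGTCA, the site of Esrrb, was in none of the 19, in 0.433% of genes at least 2-fold lower, in 0.255% of those at least 2-fold higher and in 0.334% of tested genes. A match describes letters in this window and is not a bound site. In the sequences below, read 5′ to 3′ towards the start, capitals mark CCAAT or its reverse complement, and in Hmgcs1 also the SREBP-type motif.
Hmgcs1, chr13:119690101-119690350, plus strand: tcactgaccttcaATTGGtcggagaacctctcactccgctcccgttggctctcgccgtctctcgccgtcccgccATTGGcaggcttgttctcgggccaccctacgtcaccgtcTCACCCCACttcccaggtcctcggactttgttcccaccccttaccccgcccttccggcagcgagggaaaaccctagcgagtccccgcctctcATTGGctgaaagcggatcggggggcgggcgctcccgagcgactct
Cyp51, chr5:4104698-4104947, minus strand: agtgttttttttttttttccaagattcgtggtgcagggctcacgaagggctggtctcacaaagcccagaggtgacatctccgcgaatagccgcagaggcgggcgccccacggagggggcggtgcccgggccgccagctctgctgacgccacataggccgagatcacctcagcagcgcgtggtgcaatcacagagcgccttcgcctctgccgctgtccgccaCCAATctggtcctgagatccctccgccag
Lss, chr10:76531355-76531604, plus strand: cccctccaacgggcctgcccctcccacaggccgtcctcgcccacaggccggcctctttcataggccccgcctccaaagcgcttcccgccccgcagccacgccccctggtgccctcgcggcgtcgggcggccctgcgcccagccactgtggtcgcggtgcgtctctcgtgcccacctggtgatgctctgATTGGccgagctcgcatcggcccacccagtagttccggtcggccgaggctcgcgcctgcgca
Idi1, chr13:8885356-8885605, plus strand: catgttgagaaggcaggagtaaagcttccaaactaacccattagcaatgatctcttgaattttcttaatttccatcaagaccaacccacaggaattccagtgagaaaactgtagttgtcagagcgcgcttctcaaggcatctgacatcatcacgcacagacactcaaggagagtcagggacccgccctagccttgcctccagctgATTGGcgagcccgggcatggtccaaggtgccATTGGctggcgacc
Hmgcs1 holds 3 CCAAT matches, Idi1 2, and Cyp51 and Lss 1 each.

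Other metabolic lists moved less or in the other direction. In the list of the integrated and unfolded protein stress responses 17 of 26 fell, 2 rose and 7 did not pass (median -0.68). Chac1, an enzyme that degrades glutathione, ran from 10.50 to 11.19 with a median of 10.81, against 13.54, 13.51, 13.43 and 13.42, and was 6.12-fold lower (adjusted p = 1.60e-09). Trib3, a pseudokinase induced by Atf4, was 3.23-fold lower (8.89 to 9.81 against 10.95 to 11.11, adjusted p = 5.64e-10), and Xbp1, a factor of the unfolded protein response, 1.74-fold (adjusted p = 4.82e-10). Atf4, which drives Chac1 and Trib3, had a difference of 0.43 in the other direction (1.35-fold higher, adjusted p = 0.00426), which did not pass with scaling to a common median (0.29, adjusted p = 0.0705). The chaperone Hspa5 was 2.36-fold higher in the fit (adjusted p = 6.90e-05), with clone 8 at 8.69, below all R1 replicates, and the others at 10.23 to 10.78. With near-identical arrays averaged neither Hspa5 (1.07, adjusted p = 0.125) nor Atf4 (0.43, adjusted p = 0.255) passed, and no member of the list rose. Against OSK clones Chac1 was higher, by 1.31 (adjusted p = 9.61e-06).

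Of 27 genes of glycolysis and hypoxia 17 did not pass, 7 fell and 3 rose, and 4 fell with near-identical arrays averaged. Pfkp, a phosphofructokinase, was 5.61-fold lower (9.48 to 11.01 against 12.43 to 12.65, adjusted p = 1.60e-10), Ldhb 2.39-fold and Vegfa 2.27-fold lower, while pyruvate kinase Pkm was 1.74-fold higher (15.36 to 15.73 against 14.67 to 14.82, adjusted p = 3.83e-11). Of 29 redox genes 13 rose, 7 fell and 9 did not pass, and 5 rose and 3 fell with near-identical arrays averaged. Gsr, glutathione reductase, was 2.88-fold higher (adjusted p = 2.55e-08) and Gclm, which limits glutathione synthesis, 2.22-fold (11.36 to 11.98 against 10.36 to 10.53, adjusted p = 1.44e-13), while Sod1 was 1.61-fold lower (adjusted p = 5.36e-09). The cell cycle list was split, with 12 of 34 higher and 14 lower, or 9 and 8 with near-identical arrays averaged. Plk1, the mitotic kinase, was 1.67-fold higher and Cdk2 1.36-fold lower, each without overlap. In the p53 list 7 of 21 rose and 6 fell. Its best known target, the cell cycle inhibitor Cdkn1a, was 1.86-fold higher (11.87 to 12.67 against 11.38 to 11.48, adjusted p = 0.000377), and with near-identical arrays averaged 1 member rose and Cdkn1a did not pass.

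Genes of DNA methylation and imprinting bear on the epigenetic state. Of 18 genes of DNA methylation and Polycomb 8 fell, 2 rose and 8 did not pass (median -0.31), and 5 fell with near-identical arrays averaged. Dnmt3b, a de novo methyltransferase high in the primed state, ran from 13.50 to 14.11 with a median of 13.67, against 12.54, 12.54, 12.60 and 12.53, and was 2.27-fold higher (adjusted p = 9.81e-08). Its cofactor Dnmt3l was 2.11-fold lower (13.61 to 14.38 against 14.99 to 15.09, adjusted p = 3.30e-08), and Mtf2, a Polycomb accessory protein, 2.27-fold lower (adjusted p = 1.07e-13). D3 cells had Dnmt3b at a mean of 13.48, next to the OSE clones, and Dnmt3l at 14.99, with R1. Among 21 imprinted genes 8 rose, 6 fell and 7 did not pass, and with near-identical arrays averaged 3 rose and 3 fell. Igf2, a growth factor expressed from the paternal allele, ran from 13.29 to 14.55 with a median of 14.11, against 11.15, 11.19, 11.31 and 11.26, and was 7.20-fold higher (adjusted p = 2.30e-09). Mkrn3 was 3.11-fold lower and its neighbour Ndn, also paternal, 1.98-fold higher.

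Primed epiblast genes rose for 8 of 12 tested, fell for 3 and did not pass for 1 (median 1.18), and 4 rose with near-identical arrays averaged. Pou3f1 (Oct6) was 2.27-fold higher (10.06 to 11.10 against 9.30 to 9.61, adjusted p = 9.50e-08), with D3 cells at 10.69. Otx2, which takes Oct4 to primed enhancers, was 3.67-fold lower (8.83 to 10.62 against 11.63 to 11.74, adjusted p = 2.05e-08). Fgf5, the classical marker of this state, depended on the clone and is given with the genes that varied most.

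The 8 called genes with the largest SD over OSE clones set clones 7 and 8 low, with the exception of Sparc. Sp5, a target of Wnt signalling, read 10.28, 10.38, 11.98, 11.93, 10.57, 10.68, 6.63 and 6.44 in clones 1 to 8, against 6.65, 6.95, 7.23 and 6.84 in R1 cells. Clones 7 and 8 lay just below the lowest R1 value, and the other 6 far above all R1 values. Fgf8, a growth factor of the primitive streak, read 9.92, 10.21, 10.81, 10.94, 9.11, 9.48, 7.40 and 6.44, against 5.66, 5.39, 6.28 and 5.62. Eomes, a T-box factor of streak and trophoblast, read 9.29, 9.13, 9.94, 9.83, 8.74, 8.99, 7.29 and 7.39, against 7.03, 6.85, 7.15 and 6.96. In both genes clones 3 and 4 were highest and clones 7 and 8 lowest. Fgf5 was at 8.81 to 10.31 in clones 1 to 6 and at 7.46 and 7.18 in clones 7 and 8, against 6.18 to 6.70 in R1 cells. In R1 cells Fgf8 lay below the signals of Col1a2 (6.67 to 6.85), which was below background on every R1 array. Sp5 and Fgf5 lay near that level in R1 cells, so the sizes of these differences are uncertain. The neuropeptide Npy, the protease inhibitor Slpi and the cytokine Il11 were also lowest in clones 7 and 8. The matrix protein Sparc was low in clone 8 alone, at 6.67 against 9.45 to 10.37 in the others and 7.55 to 7.91 in R1 cells.

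**Figure D5:**
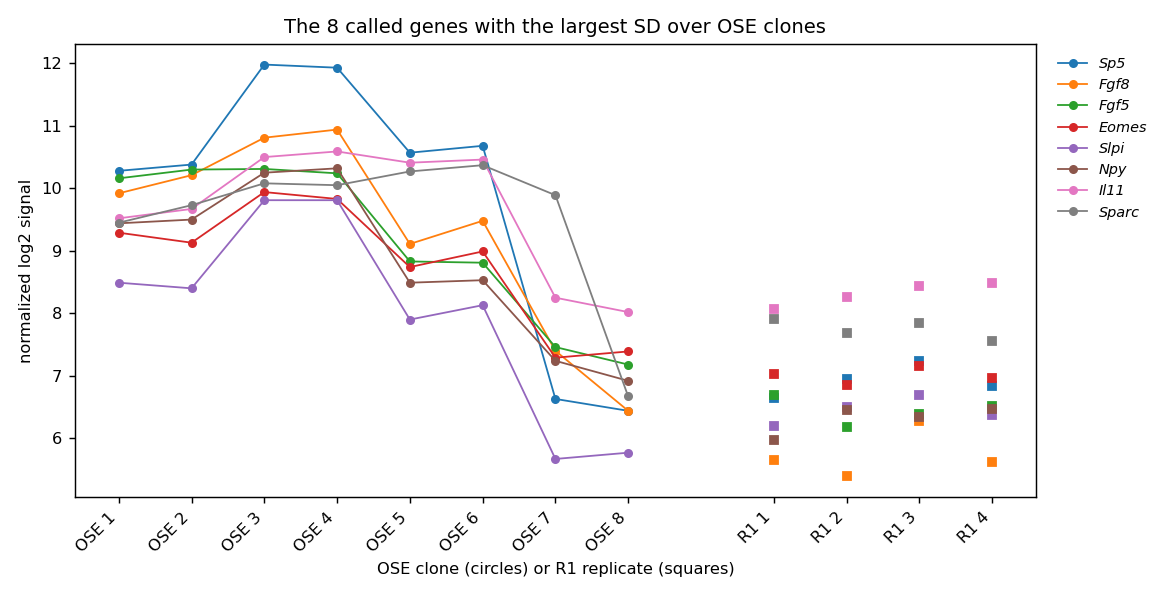
Normalized log2 signal of the 8 called genes with the largest SD over OSE clones, in each OSE clone (circles, joined by lines only to guide the eye) and each R1 replicate (squares). Clones 3 and 4 are high and clones 7 and 8 low for most, with Sparc low in clone 8 only.

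Since the order was seen in these values, the gene lists are described by counts without a test. The mesoderm and streak list itself holds Fgf8 and Eomes, and the fibroblast list holds Sparc. Some lists also share members, so their counts are not separate. Clones 7 and 8 were the lowest pair of the 8 OSE values for 12 of 20 mesoderm and streak genes (60.0%), 21 of 30 fibroblast genes (70.0%) and 12 of 21 proteases and chemokines (57.1%), against 16.1% of all features. They were the highest pair for 19 of 27 genes of glycolysis and hypoxia (70.4%) and 12 of 26 stress genes (46.2%), against 20.3% of all features. Fgf4 ran against the streak genes, with 8.67 and 9.52 in clones 7 and 8 and 7.19 to 8.08 in the others. Clones 7 and 8 were then left out, a choice made after seeing the data. The differences from R1, not bounded at background, were 4.05 for Sp5, 4.34 for Fgf8, 3.33 for Fgf5 and 2.32 for Eomes. With near-identical arrays averaged they were 2.28 for Sp5, 3.08 for Fgf8, 2.34 for Fgf5 and 1.53 for Eomes, and none of the 8 passed.

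Of 20 mesoderm and streak genes 9 rose, 1 fell and 10 did not pass (median 0.88). The count was 14 without clones 7 and 8 and 1 with near-identical arrays averaged. Meox1, a homeobox gene of somites, was at least 1.89-fold higher (7.59 to 8.12 against 6.46 to 6.85, adjusted p = 3.49e-07), with all 8 clones above R1 and a narrow range among them. Of 22 endoderm genes 5 rose, 6 fell and 11 did not pass. The number that rose was 0 with near-identical arrays averaged, 3 with scaling to a common median, and 8 with OSE and R1 arrays alone in the limma fit. Gata4, Gata6 and Sox17, which define primitive and definitive endoderm, did not pass (-0.12, -0.30 and -0.45), while the liver and gut factor Foxa1 was at least 1.89-fold lower and Apoe 2.26-fold lower (adjusted p = 9.70e-08). Of 12 neural genes 5 rose, 2 fell and 5 did not pass. Sox11 was 2.53-fold higher (9.79 to 10.73 against 8.89 to 9.27, adjusted p = 2.35e-10) and nestin (Nes) at least 2.28-fold, being below background in all R1 replicates.

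Most fibroblast genes were higher in OSE clones than in R1 cells. Of 30 tested 20 rose, 2 fell and 8 did not pass (median 0.73), and 9 rose with near-identical arrays averaged. Col1a1, the main collagen of connective tissue, ran from 10.72 to 11.60 with a median of 11.27, against 9.23, 9.36, 9.06 and 9.30, and was 3.93-fold higher (adjusted p = 1.22e-09). Thbs2, a matricellular protein, was 3.80-fold higher (11.25 to 11.88 against 9.53 to 9.94, adjusted p = 3.39e-11) and Col6a1 3.35-fold (10.80 to 11.18 against 9.24 to 9.32, adjusted p = 1.96e-13). Zeb1, a repressor of epithelial genes, was 2.17-fold lower (adjusted p = 4.24e-07).

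The mean of the fibroblast list was 9.93 and 9.60 in clones 7 and 8 and 10.22 to 10.64 in the others, against 9.30 to 9.40 in R1 cells and 8.44 and 8.47 in D3 cells. All OSE clones lay above R1, and R1 in turn above D3. This list was not high in OSE clones alone. Its mean ran from 9.17 to 10.29 in OSK clones and from 9.23 to 10.245 in OSKT clones, overlapping both OSE clones and R1 cells. Of the defining markers Col1a1, Thy1 (1.47, adjusted p = 3.72e-06), Col3a1 (1.47, 7.87e-08), Col1a2 (0.61, 0.044) and Vim (0.54, 0.0211) rose. Col3a1 and Col1a2 were below background in R1 cells, so the sizes of their differences are uncertain. Vim, at 13.99 to 15.01, overlapped R1 at 13.96 to 14.22, and Postn was below background in every OSE clone. In bulk RNA fewer cells of a type and less RNA per cell cannot be told apart. The part of remaining fibroblasts, of feeder cells or of differentiating cells in the results above was not tested.

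The Y-linked translation factor gene Eif2s3y was above background in all 8 OSE clones, with a lowest, median and highest signal of 8.72, 10.73 and 10.99, and read 11.29, 10.94, 11.19 and 11.12 in R1 cells. Of the clones 7 lay below all R1 replicates and 1 overlapped them, and clone 8 was lowest. The difference of -0.66 (1.58-fold lower, adjusted p = 0.0465) did not pass without clone 8 (-0.41, adjusted p = 0.104), without clone 1 (-0.67, 0.055) or 4 (-0.65, 0.0609), or without any of the R1 replicates (-0.61 to -0.73). Against OSK clones Eif2s3y was 4.20 higher (adjusted p = 3.46e-17), and against OSKT clones 4.33 higher (adjusted p = 6.30e-18). Erdr1, of the pseudoautosomal region shared by X and Y, was 2.26-fold higher than in R1 cells (12.29 to 13.55 against 11.36 to 11.67, adjusted p = 2.54e-05) and stood 5.92 above OSK and 5.90 above OSKT clones (adjusted p = 3.23e-25 and 3.68e-25). The differences from OSK and OSKT clones were not bounded at background, so their sizes are uncertain where a set was dim. Of the 10 tested genes of the sex chromosome list 3 rose, 3 fell and 4 did not pass, and 1 fell with near-identical arrays averaged. Of the X-linked partners of Y genes Kdm6a was 1.68-fold lower (10.99 to 11.14 against 11.77 to 11.91, adjusted p = 4.25e-10).

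X-linked genes as a class differed little from autosomal genes. Of 295 tested 88 were higher (29.8%) and 74 lower (25.1%), with a median difference of 0.07, against 29.0% and 30.5% of 8936 autosomal genes, with a median of 0.01. The median of X-linked over autosomal genes per array, each against the R1 mean, ran from -0.06 to 0.13 in OSE clones. It ran from 0.09 to 0.35 in OSK clones and from 0.22 to 0.55 in OSKT clones. R1 replicates, which set the reference, ran from -0.02 to 0.02, and D3 replicates read 0.03 and 0.02. All OSE clones except clone 8 (-0.06) lay above every R1 and D3 replicate. Xist and Ddx3y had no probe, and Uty and Kdm5d were too dim to test.

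OSE clones, given Esrrb, and OSK clones, given Klf4, were compared to see which genes set the OSE clones apart from another iPS set. The sets also differed in the sex-linked genes Eif2s3y and Erdr1, and the sex and strain of their fibroblasts are not given. Factor and fibroblast source cannot be told apart in this comparison. Between OSE and OSK clones 4824 features changed (45.8%), 2442 higher (23.2%) and 2382 lower (22.6%) in OSE clones. Differences between these sets are given without a bound at background, so their sizes are uncertain where a set was dim. The highest, with Erdr1, Olig1 and Eif2s3y, were Olfr887, annotated as an olfactory receptor (5.67, adjusted p = 1.05e-23), Thumpd1, a factor of tRNA acetylation (3.67, adjusted p = 9.67e-28), and Csrp1, a LIM protein of smooth muscle (2.45, adjusted p = 6.27e-10). Thumpd1 ran from 10.76 to 11.09 with a median of 10.91 in OSE clones and read 12.10, 12.14, 11.93 and 11.99 in R1 cells, while its mean in OSK clones was 7.23. The OSE clones thus lay far nearer to R1 for Thumpd1, though still 2.21-fold below it (adjusted p = 1.38e-10). Olfr887 lay above R1 (11.64 to 13.05 against 9.83 to 10.40, adjusted p = 1.63e-08) and had a mean of 6.38 in OSK clones.

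The lowest were Xlr3b, an imprinted X-linked gene (-4.01, adjusted p = 1.71e-16), Dmrtc1c1 (-2.61), the oocyte homeobox gene Obox6 (-2.42), Smc1b (-2.40), Rhox5 (-2.29, adjusted p = 6.57e-13) and Rcsd1 (-2.26). Of these Xlr3b, Dmrtc1c1 and Smc1b were below background in most OSE clones, so the sizes of their differences are uncertain. Xlr3b was above background in 1 of 8 OSE clones, clone 1 at 8.26 with the others at 5.84 to 6.67, against 9.50, 9.28, 9.42 and 9.22 in R1 cells and a mean of 10.60 in OSK clones. It was at least 4.57-fold lower than in R1 cells (adjusted p = 3.90e-10), and a second probe was below background. Rhox5 ran from 10.59 to 12.28 in OSE clones and 10.93 to 11.12 in R1 cells, with a mean of 13.78 in OSK clones. Rcsd1 differed from R1 by -0.54 (adjusted p = 0.0471), a call lost in 9 of the 12 fits that leave out a single OSE or R1 array.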

How the data were processed

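Total RNA of 36 samples was hybridised to one-colour Illumina mouse bead arrays, which were read with BeadStudio (version not given), per the submitters' processing notes. The authors deposited signal intensity values per probe without scaling, used here, and a scaled table, used as an alternative. Whether background was subtracted is not stated, but values below 0 occur. Of 24613 probes 5893 (23.9%) held values between -5.3 and 14.7 on every array and were left out as not measured.

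The intensities were corrected with normexp (offset 16), quantile normalized and taken to log2 in limma 3.58.1 (R 4.3.3). A probe was above background past the 99th percentile of a normal distribution fitted to the negative signals of its array, and probes above it on at least 4 arrays were kept. Of several probes for a symbol the one with the highest mean was used, leaving 10533 features, of which 9235 carried a symbol. Probe names come from GEO's platform annotation, which names 1 gene for 20984 probes, several for 1 and none for 3628. One fit held all 36 arrays with 5 group means (lmFit, eBayes with trend), with Benjamini-Hochberg adjusted p under 0.05. Where most arrays of a group were below background, the fold was computed against the lowest signal above background on each array and is given as "at least". Log2 differences were not bounded in this way.

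Samples were grouped by title. Named genes were the 15 highest and 15 lowest of those that changed, the factors and sex-linked genes, up to 3 members per list and direction, the 8 most variable among OSE clones, and the 6 highest and 6 lowest against OSK clones. Other list members are named to show the range of a list and were chosen after their values were seen. The members and lists were chosen with earlier results of these data known. On simulated data with the sizes of OSE against R1 (10533 features, 200 changed), 64% of changes of 0.5 and 98% of changes of 1 on the log2 scale were recovered. False calls numbered 7 and 2. Far fewer features changed there than the 58.7% called in these data, so recovery in these data can differ. Alternatives were other background corrections, scalings, filters, array weights, a fit of the 12 arrays alone, averaging of near-identical arrays, a replicate block and leaving out each array. The precision is limited by the number of arrays.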

Additional observations from a re-analysis of the deposited data

Results flagged for a closer look

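Of 322 groups of values (161 named genes in OSE clones and in R1 replicates) 15 held a sample that stood apart by Dixon's criterion. Chance gives about as many at 1 in 20 independent groups. Genes on 1 array are not independent, and 8 genes were named for their SD over OSE clones, so the count cannot be set against chance. Of the 15 flagged groups 10 were in OSE clones, 8 of them for clone 8, and 5 in R1 cells, 4 of them for replicate 3. In clone 8 the signal was below the other OSE clones for Eif3j1 (9.03 against 9.85 to 10.21), Eif2s3y (8.72 against 10.39 to 10.99), Sparc (6.67 against 9.45 to 10.37) and Lamb1 (6.44 against 7.64 to 8.09). It was also lower for Ndn (11.00 against 11.74 to 12.11), Phlda3 (9.23 against 9.85 to 10.32), Hspa5 (8.69 against 10.23 to 10.78) and Gsr (10.80 against 12.07 to 12.22). Clone 8 also had the lowest 75th percentile of signal, and the part of signal strength in these values was not tested. Dppa3 in OSE clone 7 was 11.89 against 11.23 to 11.48, and Xlr3b in OSE clone 1 was 8.26 against 5.84 to 6.67. In R1 replicate 3 Efhc2 was 10.50 against 10.31 to 10.34, Dnmt3b 12.60 against 12.53 to 12.54, Nnat 5.54 against 5.91 to 5.95, and Gclm 10.36 against 10.51 to 10.53. Tfap2c in R1 replicate 4 was 10.48 against 10.37 to 10.38.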

How the results depend on the processing

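No named gene changed direction under any alternative. With near-identical arrays averaged, which leaves 5 OSE samples and 1 R1 sample that is assumed to vary like the other groups, 2917 features changed against R1 (1338 higher and 1579 lower), 3027 changed against OSK clones, and 29 of the 160 named genes that had passed no longer did. The averaging itself leaves fewer samples. With no normexp and a floor of 16, 2212 features changed at least 2-fold, and 2214 did so from the authors' scaled table, and the cause was not tested. Leaving out 1 array gave 5700 to 6385 features changed, 2776 to 3143 higher, 2911 to 3242 lower, 1210 to 1335 at least 2-fold, and 4361 to 5382 against OSK clones. With a replicate block 6695 features changed (3279 higher and 3416 lower), 1544 at least 2-fold and 4898 against OSK clones. The labels do not say that the numbers pair the samples. Same-numbered OSE and R1 samples had correlations of deviations of 0.019, -0.038, 0.091 and -0.05, which cannot show whether samples were handled together. When arrays were scaled to 1 median instead, 2458 features were higher and 3517 lower, and the median difference was -0.05. With clones 7 and 8 left out, chosen after seeing the data, 3 named genes lost their call. Slpi was lost without OSE clone 1, 2, 3, 4 or 6 or any R1 replicate (1.29 to 1.64), and Fn1 without R1 replicate 1, 2 or 4 (-0.36 to -0.40). The slide as a block was not run, since no slide is named in the headers. Dim probes have only bounds.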
